A study of Homo sapiens with 12 samples.

Results

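The integrin and focal adhesion genes described here are 37 genes chosen by name. They comprise 12 integrin α subunits, 8 integrin β subunits and 17 genes for the adaptors, kinases and membrane scaffolds that work beside them. All 37 were found by symbol among the 62262 genes of the deposited count table, and 36 of them were among the 19784 genes abundant enough to test. They were listed by name and role and not by a measured threshold, with earlier results of these data known. RNA was measured in differentiated, conditionally immortalized human podocytes after 24 h with 100 nM cyclosporine A (CSA), 100 nM tacrolimus (TAC), 100 nM voclosporin (VCS) or the solvent DMSO, with 3 libraries in each of the 4 groups. All groups are the Moin Saleem line, whose SV40 T gene works only at a lower temperature, and differentiation followed a move of the cells to the higher, non-permissive temperature. The results therefore describe 1 cell line in culture. The labels do not say whether replicates were separate cultures, and p-values therefore measure only the spread between these libraries, which may be technical.

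Integrins are receptors that bind extracellular matrix outside the cell and, through their short tails, the actin cytoskeleton inside it. Each receptor pairs an α with a β subunit: α3β1 and α6β4 bind laminins, α5β1 and the αV integrins bind fibronectin and vitronectin through an RGD motif, and α1β1, α2β1, α10β1 and α11β1 bind collagens. Podocytes, the epithelial cells that cover the glomerular capillaries, hold on to the laminin-rich glomerular basement membrane mainly by α3β1. Talins and kindlins switch integrins on, the complex of integrin-linked kinase with PINCH and parvin joins them to actin, and focal adhesion kinase with paxillin and p130Cas passes on the signal. CSA, VCS and TAC inhibit calcineurin, the phosphatase that sends NFAT transcription factors to the nucleus. VCS is a CSA analog with an altered amino acid side chain, whereas TAC is a macrolide.

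Library totals ran from 28808213 to 36077072 counts. Mitochondrial transcripts took 9.68 to 13.4% of the counts in the 4 libraries numbered 3 and 5.82 to 8.12% in the others. Podocyte markers were uneven. The slit diaphragm gene NPHS1 had 1 to 11 counts per library and the transcription factor gene WT1 had 20 to 50, whereas the cytoskeletal genes SYNPO and ACTN4 had 1351 to 2321 and 40565 to 57806 counts. Of 8 mesangial and fibroblast markers COL1A1 and THY1 were the highest, at 107126 to 188245 and 12945 to 20855 counts, LUM and PDGFRB had 2259 to 4047 and 574 to 942, and PDGFRA, DES, GATA3 and DCN had 3 to 22, 5 to 31, 10 to 32 and 18 to 139. The defining podocyte marker NPHS1 was therefore near 0 in cells labelled podocytes.

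Promoter windows, running from 250 bases before to 50 bases after a gene's start, were available from RefSeq (GRCh38.p14) for 28 of the 37 genes. Shown here are ITGB1 and ITGAV, for the most abundant β subunit and the second most abundant α subunit, CAV1, which had the smallest p against DMSO, and ITGA8, which was nearly silent. Each is written 5′ to 3′ on the gene's own strand, and capitals mark GGAAA or its reverse complement TTTCC, the core of the NFAT recognition sequence.
ITGB1, chr10:32958181-32958480, minus strand: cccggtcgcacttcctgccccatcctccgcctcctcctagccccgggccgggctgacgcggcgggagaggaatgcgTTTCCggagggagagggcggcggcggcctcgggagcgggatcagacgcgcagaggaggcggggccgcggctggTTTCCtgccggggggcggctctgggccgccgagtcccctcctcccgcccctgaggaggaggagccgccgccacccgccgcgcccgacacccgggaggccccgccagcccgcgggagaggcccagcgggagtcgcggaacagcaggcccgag
ITGAV, chr2:186589806-186590105, plus strand: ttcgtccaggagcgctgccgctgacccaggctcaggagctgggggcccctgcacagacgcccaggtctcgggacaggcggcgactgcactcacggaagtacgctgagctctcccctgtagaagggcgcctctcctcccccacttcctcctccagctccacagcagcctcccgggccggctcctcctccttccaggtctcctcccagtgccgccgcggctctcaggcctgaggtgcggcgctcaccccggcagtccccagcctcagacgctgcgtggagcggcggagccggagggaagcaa
CAV1, chr7:116524759-116525058, plus strand: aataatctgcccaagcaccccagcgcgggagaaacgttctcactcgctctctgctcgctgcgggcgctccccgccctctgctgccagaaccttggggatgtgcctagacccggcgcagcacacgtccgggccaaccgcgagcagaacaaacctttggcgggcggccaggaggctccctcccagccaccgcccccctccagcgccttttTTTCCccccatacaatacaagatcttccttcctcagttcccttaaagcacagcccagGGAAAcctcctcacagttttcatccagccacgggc
ITGA8, chr10:15719873-15720172, minus strand: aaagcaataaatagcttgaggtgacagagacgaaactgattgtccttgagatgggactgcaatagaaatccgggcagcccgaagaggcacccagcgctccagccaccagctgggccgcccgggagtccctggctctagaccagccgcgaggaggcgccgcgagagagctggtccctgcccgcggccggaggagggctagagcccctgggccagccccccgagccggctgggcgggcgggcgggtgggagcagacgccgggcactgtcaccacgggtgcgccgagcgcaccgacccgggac

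The ITGB1 and CAV1 windows each held 2 matches to the NFAT core, and the ITGAV and ITGA8 windows held 0. Only the first listed window of each member was used, and ITGB1, ITGAV and CAV1 have 2, 2 and 3 windows listed. Searching both strands, GGAAA was found in 15 of the 28 windows (53.6%), against 61.2% of all 35116 RefSeq windows of the same length. That background counts every listed window of a gene. The GC box GGGCGG was found in 18 (64.3%, against 45.0% of all windows), CCAAT in 3 (10.7%, against 34.6%) and TATAAA in 1 (3.57%, against 11.5%). ITGB1, CAV1 and ITGA8 held 3, 3 and 4 GC boxes and ITGAV held 0. Matches to different motifs can share bases, and a match is a run of letters only, which says nothing about binding in these cells.

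To compare genes with one another, levels were expressed as CPM (counts scaled to library size) per kilobase of exon and rescaled to the same sum in every library. On this per-length scale a laminin receptor subunit led the α subunits. ITGA3 (chr17:50055968-50090481 on GRCh38) averaged 353 (range 265 to 439) over the 12 libraries. ITGAV (chr2:186590065-186680901), the shared α subunit of the vitronectin receptors, averaged 136 (range 99.9 to 177). The ranges of these subunits did not overlap, and neither overlapped that of the next gene.

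ITGA6, an α subunit of other laminin receptors, and ITGA5, that of the fibronectin receptor, came next. ITGA6 averaged 58.7 (range 34.0 to 79.8) and ITGA5 averaged 54.7 (range 42.6 to 64.4), and their ranges overlapped. The collagen receptor subunit ITGA11 followed at 24.4 (range 15.8 to 34.2). ITGA4, ITGA2, ITGA7 and ITGA1 had means between 6.15 and 11.2, and each of their ranges overlapped that of its neighbour.

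Barely present were 3 α subunits. ITGA10, a collagen receptor subunit of cartilage, had 11 to 38 counts per library and ITGA9 had 0 to 14. ITGA8, which marks mesangial cells in the glomerulus, had 0, 2 and 0 counts in CSA, 1, 3 and 0 in TAC, 4, 3 and 1 in VCS, and 6, 1 and 7 in DMSO. It was the only member too scarce to test.

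Among the β subunits ITGB1 (chr10:32900319-33005792), the common partner of the laminin, collagen and fibronectin receptors, averaged 1288 (range 974 to 1580). It ranked 58th of 57845 genes with a length, and ITGA3 ranked 304th. ITGB3 and ITGB5, which both pair with ITGAV, averaged 231 (range 139.5 to 320.3) and 106 (range 82.0 to 126), without overlap between them. ITGB4, the partner of ITGA6 in hemidesmosomes, averaged 12.4 (range 10.2 to 14.9), and its range overlapped that of ITGB8, another partner of ITGAV.

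ITGB2, the β subunit of leukocyte integrins, averaged 4.705 (range 3.935 to 5.59). The leukocyte markers PTPRC and CD3E had 3 to 14 and 0 to 3 counts per library, and LCP1, an actin-bundling gene of leukocytes that many cultured cells also express, had 596 to 1651. ITGB6, an epithelial partner of ITGAV, averaged 3.705 (range 2.54 to 4.92). ITGB7 had 11 to 31 counts per library.

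**Figure D1:**
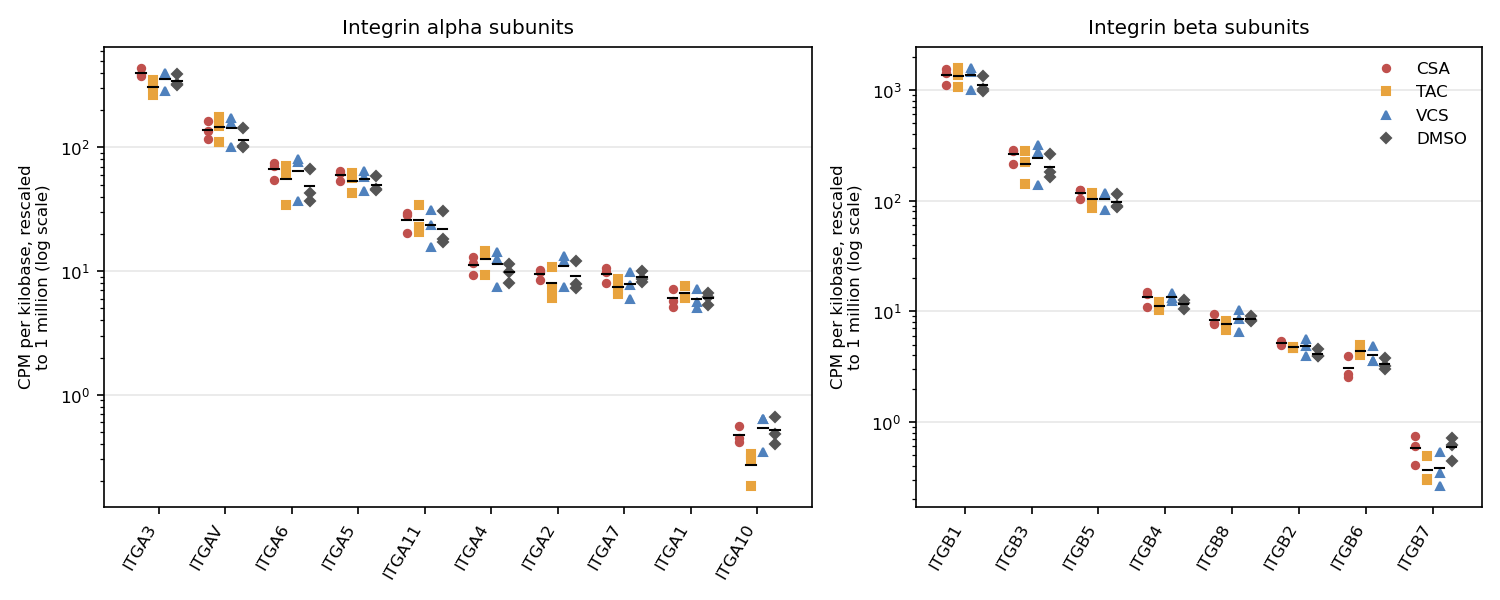
Per-length level (CPM per kilobase, rescaled to the same sum per library, log axis) of 10 α and 8 β integrin subunits in the 3 libraries of each group, with points for libraries and black bars for group means. ITGA3 and ITGB1 lead their classes in every group, and ITGA10 and ITGB7 sit at the bottom of the plotted range; ITGA8 and ITGA9 are left out because they are at 0 in some libraries.

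By level alone, the subunit pair with the most transcript was ITGA3 with ITGB1. ITGB1 made up 76.8 ± 0.792% of the summed per-length level of the 8 β subunits in CSA, 79.5 ± 1.11% in TAC, 78.3 ± 1.7% in VCS and 77.3 ± 0.496% in DMSO (SD, n = 3 each). ITGB3 took 14.8 ± 0.354% in CSA, 12.6 ± 1.71% in TAC, 13.8 ± 2.35% in VCS and 13.9 ± 1.03% in DMSO, and ITGB5 took 6.07 to 6.79% in the group means. The transcript of ITGB1 exceeded the sum of all 12 α subunits in every library, with α sums at 0.468 to 0.593 of ITGB1.

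ITGA3 held 55.2 ± 2.03% of the summed α level in CSA, 49.9 ± 2.78% in TAC, 52.8 ± 3.0% in VCS and 56.3 ± 2.41% in DMSO (SD, n = 3 each). The TAC libraries, at 47.3 to 52.85%, all lay below the DMSO libraries, at 53.6 to 58.0%, and below the CSA libraries, at 53.65 to 57.5%. ITGAV held 18.9 ± 1.22% in CSA, 23.2 ± 1.01% in TAC, 21.0 ± 1.22% in VCS and 18.65 ± 0.741% in DMSO. Here the TAC libraries (22.15 to 24.2%) and the VCS libraries (19.6 to 21.8%) all lay above the DMSO libraries (18.2 to 19.5%).

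The ratio of ITGA3 to ITGB1 was 0.274, 0.341 and 0.282 in CSA, 0.2215, 0.233 and 0.251 in TAC, 0.253, 0.261 and 0.285 in VCS, and 0.291, 0.317 and 0.3285 in DMSO. TAC and VCS each lay wholly below DMSO, TAC lay below the 2 other inhibitors, and CSA overlapped both VCS and DMSO. The summed α level over ITGB1 was 0.54 ± 0.0456 in CSA, 0.471 ± 0.003345 in TAC, 0.504 ± 0.002485 in VCS and 0.554 ± 0.0113 in DMSO. Exact permutation tests (two-sided) of the ITGA3 share, the ITGAV share and the ITGA3 to ITGB1 ratio over 6 pairs of groups gave 18 values. With 3 libraries against 3 none can fall below p = 0.1, and each separated pair reached that floor (p = 0.1, adjusted p = 0.18 over the 18 exact tests), so none passed. Between libraries of the same number, the ITGA3 to ITGB1 ratio of TAC minus that of DMSO was -0.0696, -0.0838 and -0.0777, and that of TAC minus VCS was -0.0318, -0.0276 and -0.0338. An exact sign-flip test of 3 such pairs cannot fall below p = 0.25, which is the value of both. These ratios and tests were chosen after the values were seen.

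**Figure D2:**
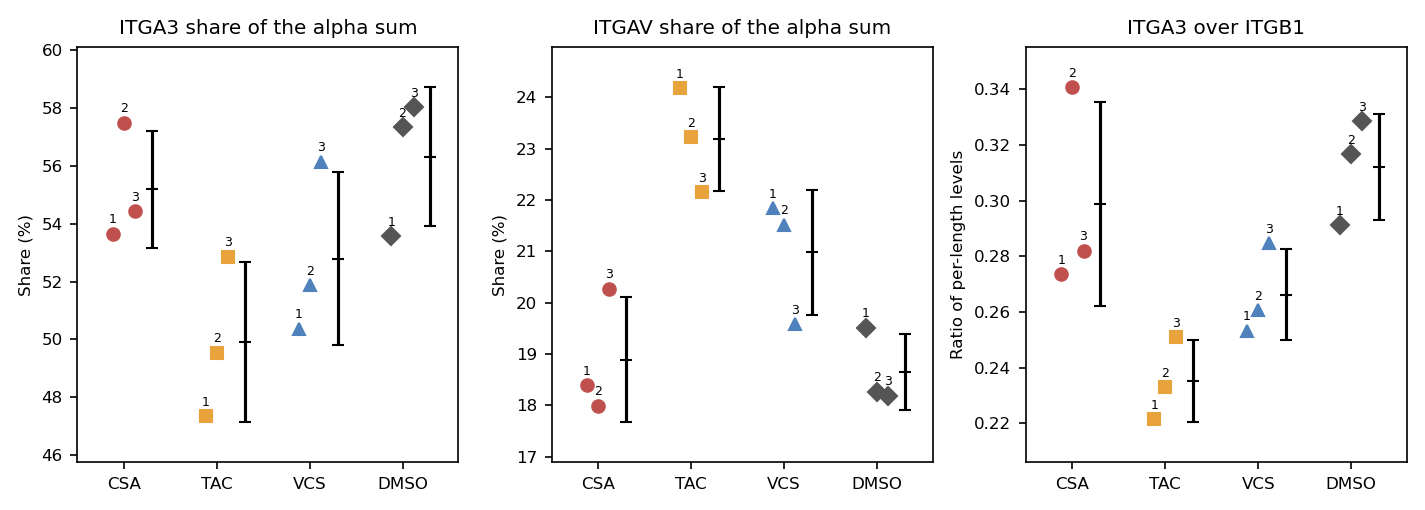
Share of ITGA3 and of ITGAV in the summed per-length level of the 12 α subunits (%), and ratio of ITGA3 to ITGB1, by group; points are libraries labelled with their replicate number, and black bars are mean ± SD (n = 3). The TAC points lie below every DMSO point for ITGA3 and its ratio to ITGB1, and above every DMSO point for ITGAV.

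Grouped by ligand, the laminin receptor subunits ITGA3, ITGA6 and ITGA7 made up 65.6 ± 1.35% of the α sum in CSA, 59.8 ± 1.415% in TAC, 63.2 ± 1.47% in VCS and 65.55 ± 1.29% in DMSO (SD, n = 3 each). The RGD receptor subunits ITGAV, ITGA5 and ITGA8 made up 27.1 ± 1.055% in CSA, 31.8 ± 1.01% in TAC, 29.2 ± 0.868% in VCS and 26.8 ± 0.62% in DMSO. The collagen receptor subunits together took 5.28 to 7.195% in single libraries. ITGB3 exceeded ITGB5 in every library, by a ratio of 1.64 to 2.71, and the libraries numbered 3 of TAC, VCS and DMSO held the lowest ratios of their groups, at 1.64, 1.7 and 1.87.

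Among the talins, kindlins and tensins, TLN1, the widely expressed talin, averaged 258 (range 177.5 to 329) on the per-length scale and TLN2 averaged 15.5 (range 9.955 to 19.2). The ratio of TLN1 to TLN2 was 15.4 to 18.7 across the libraries. FERMT2 (kindlin-2, the widely expressed form) averaged 55.9 (range 41.7 to 70.8), and FERMT1 (kindlin-1, a form of surface epithelia) averaged 5.65 (range 3.98 to 7.37). The ratio of FERMT2 to FERMT1 was 11.6, 11.5 and 13.4 in TAC, against 9.94, 9.31 and 11.4 in DMSO, so the TAC libraries all lay above the DMSO libraries. It was 8.82, 8.67 and 9.24 in VCS, all below DMSO, and 8.46, 9.015 and 9.39 in CSA, which overlapped DMSO. This ratio was not tested. TNS1 and TNS3, which tie integrin tails to actin, averaged 36.6 and 37.0 with overlapping ranges.

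ILK, the pseudokinase at the centre of its complex, averaged 134 (range 98.4 to 157), and LIMS1, which encodes the adaptor PINCH1, averaged 71.8 (range 56.5 to 82.8). LIMS1 has near-identical copies in the genome, and its value is uncertain where reads could be split between them. PARVA (α-parvin) averaged 42.1 (range 31.8 to 48.1) and PARVB (β-parvin) 10.8 (range 7.83 to 12.8), and PARVA exceeded PARVB by a ratio of 3.305 to 4.38 in the 12 libraries. The signalling scaffold was led by PXN (paxillin) at 109 (range 95.4 to 118), with BCAR1 (p130Cas) at 66.4 (range 51.9 to 77.8) and PTK2 (focal adhesion kinase) at 29.7 (range 21.4 to 35.3).

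VCL (vinculin), which reinforces talin under tension, averaged 168 (range 128 to 210.5), and ZYX (zyxin), which moves to stressed actin fibres, averaged 272 (range 223 to 321). CAV1, the main coat protein of caveolae, was the most abundant of the 17 non-integrin members at 387 (range 342 to 449), and its range did not overlap that of the next gene. With the length of the longest transcript in place of the exon union, the range of CAV1 (336.7 to 427.7) overlapped that of ZYX (245.2 to 337.5). CAV2, its partner, averaged 114 (range 102 to 125). Of the 37 genes, 30 overlap another annotated gene, such as PELO at ITGA1 and AC068234.1 at ITGB3, and whether the counting used strand is not stated. ITGA3 overlaps none.

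**Figure D3:**
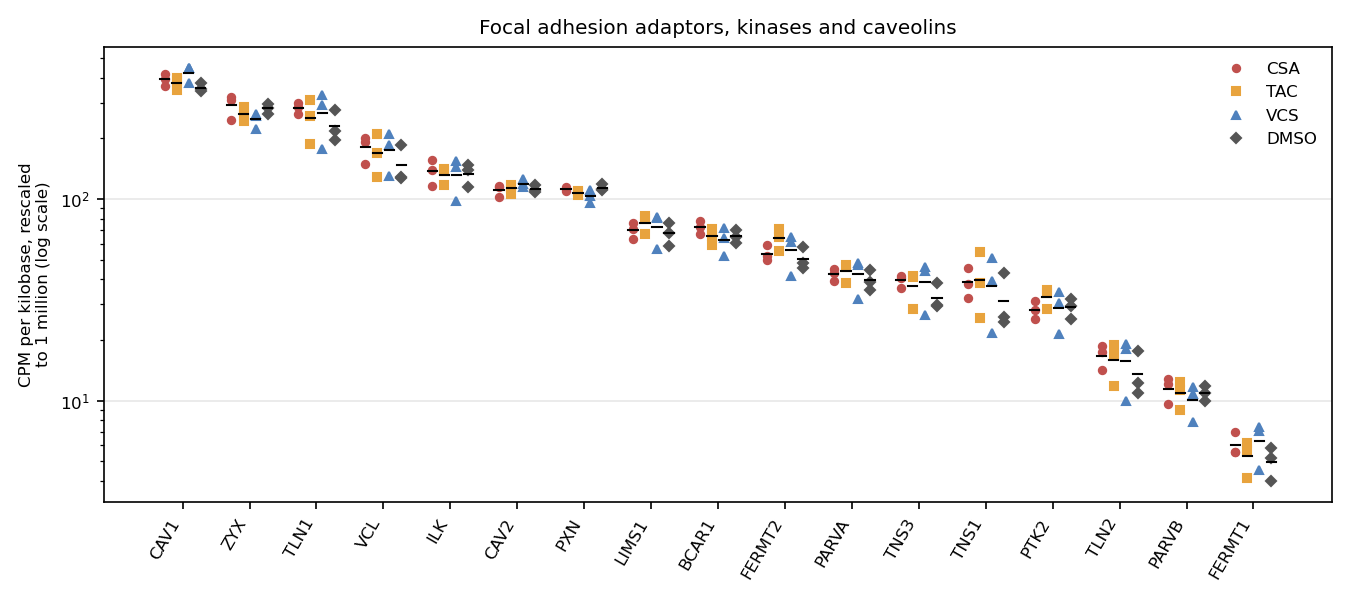
Per-length level (CPM per kilobase, rescaled to the same sum per library, log axis) of the 17 adaptor, kinase, linker and caveolin genes in the 3 libraries of each group, with points for libraries and black bars for group means. CAV1 is highest and FERMT1 lowest in every group, and the libraries of different groups overlap for most genes.

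The comparisons with DMSO ask whether calcineurin inhibition changed these genes. In CSA against DMSO, edgeR called 0 of the 36 tested members at an adjusted p under 0.05, beside 0.0101% of all tested genes, and DESeq2 also called 0. At an unadjusted p under 0.05 there were 2 members, beside 3.75% of all genes. That count depended on the fit: it was 14 with replicate number as a block (11.4% of all genes), 10 without DMSO replicate 1 (5.48%) and 6 without CSA replicate 2 (5.2%). It was 0 without DMSO replicate 2 (2.29%) or CSA replicate 3 (3.65%). Of the 36 members 27 lay above 0, with a median log2 fold change of 0.13, against 49% of all genes above 0. The members share libraries and move together within them, so this count is not one of independent genes, and in bulk RNA fewer cells of a type and less RNA per cell cannot be told apart.

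ITGB2 had the smallest p in CSA, with 9.64, 9.43 and 10.75 CPM in CSA, against 7.42, 7.5 and 9.23 CPM in DMSO. All CSA libraries lay above all DMSO libraries (log2 fold change 0.30, SE 0.13, 95% interval 0.03 to 0.58, unadjusted p = 0.03, edgeR adjusted p = 0.939). ITGB5 had 219.8, 188 and 241 CPM in CSA, against 205, 162 and 169 CPM in DMSO, with groups that overlapped (log2 fold change 0.27, SE 0.13, 95% interval 0.00 to 0.55, unadjusted p = 0.0477, edgeR adjusted p = 0.939). Below 0 the leading members were ITGA9, at 0.176, 0 and 0.174 CPM in CSA, against 0.243, 0.4305 and 0.0989 CPM in DMSO, and ITGB6, at 3.5, 3.34 and 5.48 CPM in CSA, against 3.92, 4.18 and 5.34 CPM in DMSO. Neither separated from DMSO (log2 -1.10, SE 0.76, edgeR adjusted p = 0.939 for ITGA9 and log2 -0.12, SE 0.21, edgeR adjusted p = 0.952 for ITGB6). ITGA9 rests on 0 to 14 counts per library, and the direction of ITGB6 turned when DMSO replicate 3 was left out, to 0.02, or CSA replicate 2, to 0.01. Members whose 3 CSA libraries all lay above DMSO were ITGB2 and BCAR1, and none lay wholly below, beside 4.94 and 4.93% of all genes.

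In TAC against DMSO 0 members were called by edgeR, beside 0.0354% of all genes, and 0 by DESeq2. At an unadjusted p under 0.05 there were 2 members, beside 4.65% of all genes, and with replicate number as a block there were 5, beside 13.1%. Above 0 lay 22 of the 36, with a median log2 fold change of 0.05, against 49% of all genes above 0. Without TAC replicate 1 the number above 0 was 14.

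FERMT2 had 162, 148 and 139 CPM in TAC, against 135, 115 and 116 CPM in DMSO. All TAC libraries lay above DMSO, by 0.30 on the log2 scale (SE 0.11, 95% interval 0.06 to 0.53, unadjusted p = 0.0182, edgeR adjusted p = 0.92). ITGB6 had 6.2, 5.075 and 5.93 CPM in TAC, against 3.92, 4.18 and 5.34 CPM in DMSO, with overlap (log2 0.36, SE 0.21, edgeR adjusted p = 0.92). The 12 airway and basal epithelial markers (11 tested, 0 of them at 0 in all libraries) are the list nearest to the epithelial genes ITGB6, ITGB4 and FERMT1. They summed to 24.8 to 29.9 CPM in CSA, 24.0 to 29.8 in TAC, 29.1 to 65.0 in VCS and 29.9 to 52.7 in DMSO. The sum hides opposite directions. KRT5 was at 1.19 to 2.42 CPM in TAC, against 5.47 to 12.9 in DMSO, whereas SFTPB was at 12.3 to 15.8, against 6.95 to 10.2. Of the 11 tested, 4 lay above 0 and 7 below in TAC against DMSO. In that comparison 1 was called, lower in TAC, beside 0.0354% of all genes, and 1 was called lower in CSA, beside 0.0101%. The part of these markers in the members' values was not tested.

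Of the members below 0, ITGA10 had the smallest p, with 17, 19 and 11 counts in TAC, against 23, 28 and 38 counts in DMSO. The 2 groups did not overlap (log2 fold change -0.98, SE 0.36, 95% interval -1.76 to -0.20, unadjusted p = 0.0176, edgeR adjusted p = 0.92). ITGB7, the partner of ITGA4 in lymphocytes, had 12, 20 and 13 counts in TAC, against 25, 29 and 18 in DMSO, with overlap (log2 -0.72, SE 0.35, edgeR adjusted p = 0.92). The members wholly below DMSO in TAC were ITGA10, ITGB8, PXN and ZYX, beside 6.44% of all genes, and FERMT2 alone lay wholly above, beside 5.99%.

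In VCS against DMSO 0 members were called by edgeR, beside 0.00505% of all genes, and 0 by DESeq2. At an unadjusted p under 0.05 there were 2 members, beside 3.27% of all genes. There were 8 with replicate number as a block (11.01% of all genes), 11 without VCS replicate 3 (14.4%), 11 without the 4 libraries numbered 3 (12.5%) and 8 without DMSO replicate 1 (5.2%). Above 0 lay 30 of the 36, with a median log2 fold change of 0.18, against 50.9% of all genes above 0. Without the 4 libraries numbered 3, 27 members lay above 0 for CSA, 23 for TAC and 29 for VCS, with 0 called in each.

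CAV1 had the smallest unadjusted p of any member against DMSO, with 490.3, 508 and 514 CPM in VCS, against 424, 403 and 419 CPM in DMSO. Every VCS library lay above every DMSO library (log2 fold change 0.28, SE 0.09, 95% interval 0.08 to 0.48, unadjusted p = 0.00864, edgeR adjusted p = 0.963). FERMT1 had 10.7, 10.5 and 8.12 CPM in VCS, against 8.57, 7.78 and 6.4 CPM in DMSO, with overlap (log2 fold change 0.36, SE 0.16, 95% interval 0.01 to 0.71, unadjusted p = 0.0431, edgeR adjusted p = 0.963). ZYX went the other way, with 243, 254.5 and 261 CPM in VCS, against 287, 278 and 276 CPM in DMSO. The VCS libraries all lay below DMSO (log2 -0.15, SE 0.09, edgeR adjusted p = 0.963). ITGB7 had 13, 22 and 11 counts in VCS, against 25, 29 and 18 in DMSO (log2 -0.60, SE 0.35, edgeR adjusted p = 0.963). CAV1 was the only member wholly above DMSO and ZYX the only one wholly below, beside 3.32 and 4.16% of all genes.

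**Figure D4:**
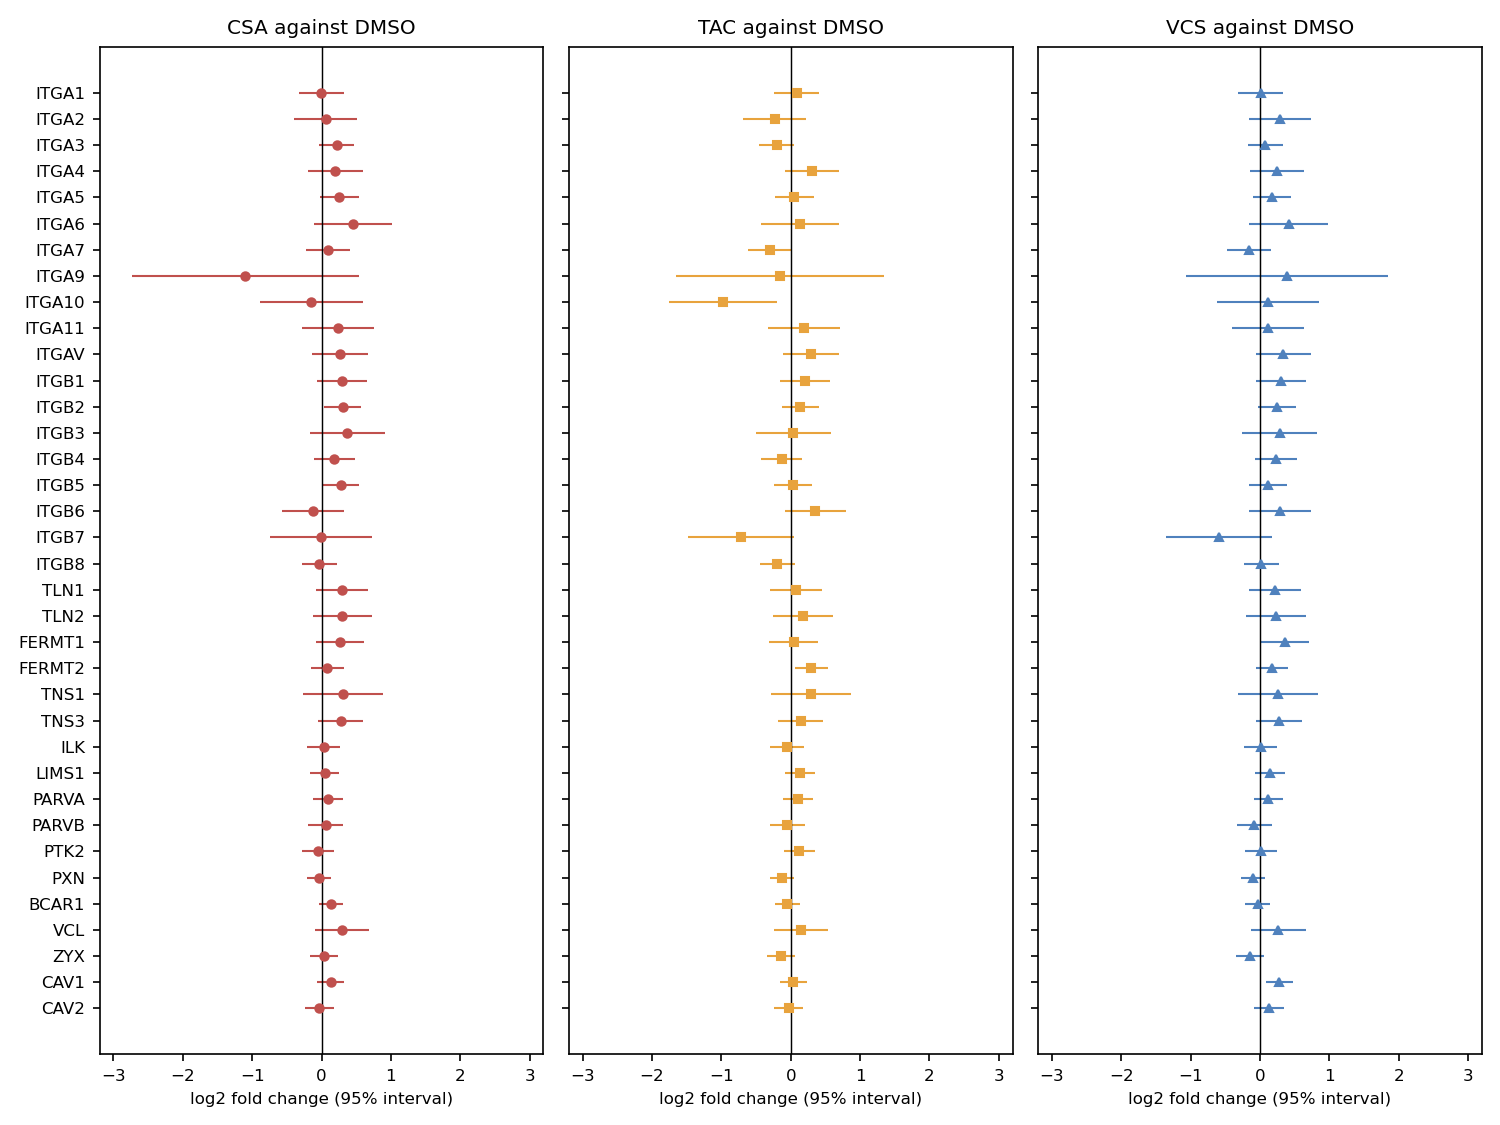
Log2 fold change against DMSO with its 95% interval (edgeR) for the 36 tested members in CSA, TAC and VCS. Most points lie between 0 and 0.4, most intervals cross 0, and none of the members passed the adjusted threshold; the 3 panels share their DMSO libraries.

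The most abundant subunits did not pass either. ITGA3 was at 1049, 1034 and 1276 CPM in CSA, 915, 833 and 766 in TAC, 1059, 1038 and 942 in VCS, and 1057, 890.2 and 941.5 in DMSO. Its log2 difference from DMSO was 0.22 (95% interval -0.03 to 0.47) in CSA and -0.20 (95% interval -0.45 to 0.05) in TAC, with an edgeR adjusted p of 0.939 and 0.92. ITGB1 was at 2350, 1861 and 2773 CPM in CSA, 2534, 2193 and 1872 in TAC, 2564, 2443 and 2030 in VCS, and 2227, 1723 and 1758 in DMSO. It lay above DMSO on average in all 3 comparisons, by 0.29 in CSA, 0.21 in TAC and 0.30 in VCS on the log2 scale (SE 0.17 each), with overlapping libraries.

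ITGAV was at 301, 271 and 398 CPM in CSA, 391.5, 327 and 269 in TAC, 385, 360.5 and 275 in VCS, and 322, 237.5 and 247 in DMSO. Set against DMSO, the log2 fold change of ITGAV was 0.27 for CSA, 0.29 for TAC and 0.34 for VCS (SE 0.18 each). ITGA5 was at 128, 114 and 145 CPM in CSA, 126, 114 and 95 in TAC, 131, 122 and 112 in VCS, and 122, 98.35 and 103 in DMSO. In ITGA5, as in ITGAV, each group's range overlapped that of DMSO.

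ITGB3 was at 338, 267 and 376 CPM in CSA, 332, 262 and 182 in TAC, 379.8, 336 and 206 in VCS, and 319, 222 and 216 in DMSO. Its lowest values, 182 and 206 CPM, were those of TAC and VCS replicate 3, and its range within each group was wider than the distance between any of the group means. The mean of the 3 inhibitors against DMSO called 0 members in edgeR and in DESeq2, beside 0.0101% of all genes, with 1 member, ITGB2, at an unadjusted p under 0.05 (3.66% of all genes). The test of any difference among the 4 groups called 0, beside 0.0505% of all genes, with ITGA3, CAV1 and ITGA10 at an unadjusted p under 0.05 (3.9% of all genes); DESeq2 called 0 there too.

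The inhibitors were given at the same dose and time, so 3 pairs could be compared. In CSA against TAC 0 members were called by edgeR and by DESeq2, beside 0.0303% of all genes, and 6 had an unadjusted p under 0.05, beside 7.52%. With replicate number as a block 12 did, beside 15.9% of all genes, and without TAC replicate 3 only 1 did, beside 5.7%. ITGA3 had the smallest p. Its CSA libraries, at 1034 to 1276 CPM, all lay above its TAC libraries, at 766 to 915 CPM (log2 fold change 0.42, SE 0.12, 95% interval 0.17 to 0.67, unadjusted p = 0.00329, edgeR adjusted p = 0.494). Over the alternative analyses the smallest edgeR or DESeq2 adjusted p of any member in this comparison was 0.0647 to 0.936. BCAR1 had 195, 188 and 182 CPM in CSA, against 175.5, 161 and 159 CPM in TAC, again with no overlap (log2 0.19, SE 0.08, edgeR adjusted p = 0.649). The members wholly above TAC were ITGA3, ITGA10, ITGB2 and BCAR1 (6.84% of all genes), and those wholly below were ITGA9 and FERMT2 (6.74%).

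In TAC against VCS 0 members were called by edgeR and by DESeq2, beside 0.0253% of all genes, and 5 had an unadjusted p under 0.05, beside 3.63% of all genes. All 5 were lower in TAC, beside 2.02% of all genes in that direction. Of the 36 members 27 lay below 0 and 9 above, with a median log2 fold change of -0.10. Without TAC replicate 3, 16 lay above 0, the median was -0.0093 and 2 had an unadjusted p under 0.05 (3.09% of all genes). Without VCS replicate 1 the median was -0.026. ITGA10 differed by -1.09 (95% interval -1.87 to -0.32) on the log2 scale, CAV1 by -0.24 (95% interval -0.44 to -0.05), ITGB4 by -0.36 (95% interval -0.66 to -0.06), ITGA2 by -0.52 (95% interval -0.97 to -0.07) and ITGA3 by -0.27 (95% interval -0.52 to -0.02), each with an edgeR adjusted p of 0.9999. CAV1 had 423, 436 and 419 CPM in TAC, against 490.3, 508 and 514 CPM in VCS. The members wholly lower in TAC were ITGA3, ITGA10, ITGB4 and CAV1 (4.65% of all genes), and 0 were wholly higher (4.12%).

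CSA and its analog VCS differed in 0 members by edgeR and by DESeq2, beside 0.0101% of all genes, and 0 members had an unadjusted p under 0.05, beside 2.54%. There were 4 with replicate number as a block (6.29% of all genes), 4 without CSA replicate 3 (2.91%) and 5 without the 4 libraries numbered 3 (7.4%). The member with the smallest p was BCAR1, with 195, 188 and 182 CPM in CSA, against 177, 164 and 159.9 CPM in VCS. These libraries did not overlap (BCAR1 was the only member wholly above, beside 3.04% of all genes, and ITGA9 the only one wholly below, beside 2.82%), with a log2 difference of 0.17 (95% interval -0.01 to 0.35) and an edgeR adjusted p of 1.0. For ITGA3 the difference was 0.14 (95% interval -0.11 to 0.40) and for CAV1 it was -0.15 (95% interval -0.35 to 0.05). The data remain compatible with any difference within these intervals. Of the members 19 lay above 0 and 17 below, with a median log2 fold change of 0.01. This split moved with single libraries in both directions: 10 lay above 0 without VCS replicate 3 (median -0.097) and 12 without CSA replicate 3 (median -0.03), whereas 25 did without VCS replicate 1 (median 0.077) and 25 without CSA replicate 2 (median 0.10).

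Libraries of the same group differed in these genes as a whole. TAC replicate 3 and VCS replicate 3 each held the lowest value of their group for 26 of the 36 members (72.2%), against 38.5 and 39.3% of all tested genes. TAC replicate 1, VCS replicate 1 and DMSO replicate 1 held the highest for 26, 24 and 26 members, against 33.9, 27.9 and 34.9% of all genes. CSA went differently: replicate 3 was highest for 21 members and replicate 2 lowest for 25, against 39.4 and 30.5% of all genes. CSA replicate 3 also had the highest summed level of the 8 mesangial and fibroblast markers, at 6206 CPM, against 3785 to 4636 CPM in the other 11 libraries. COL1A1 alone made up 5455 CPM of the 6206, and PDGFRA, DES, GATA3 and DCN were each at most 3.31 CPM in CSA. The part of COL1A1 or of that sum in the members' values was not tested.

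**Figure D5:**
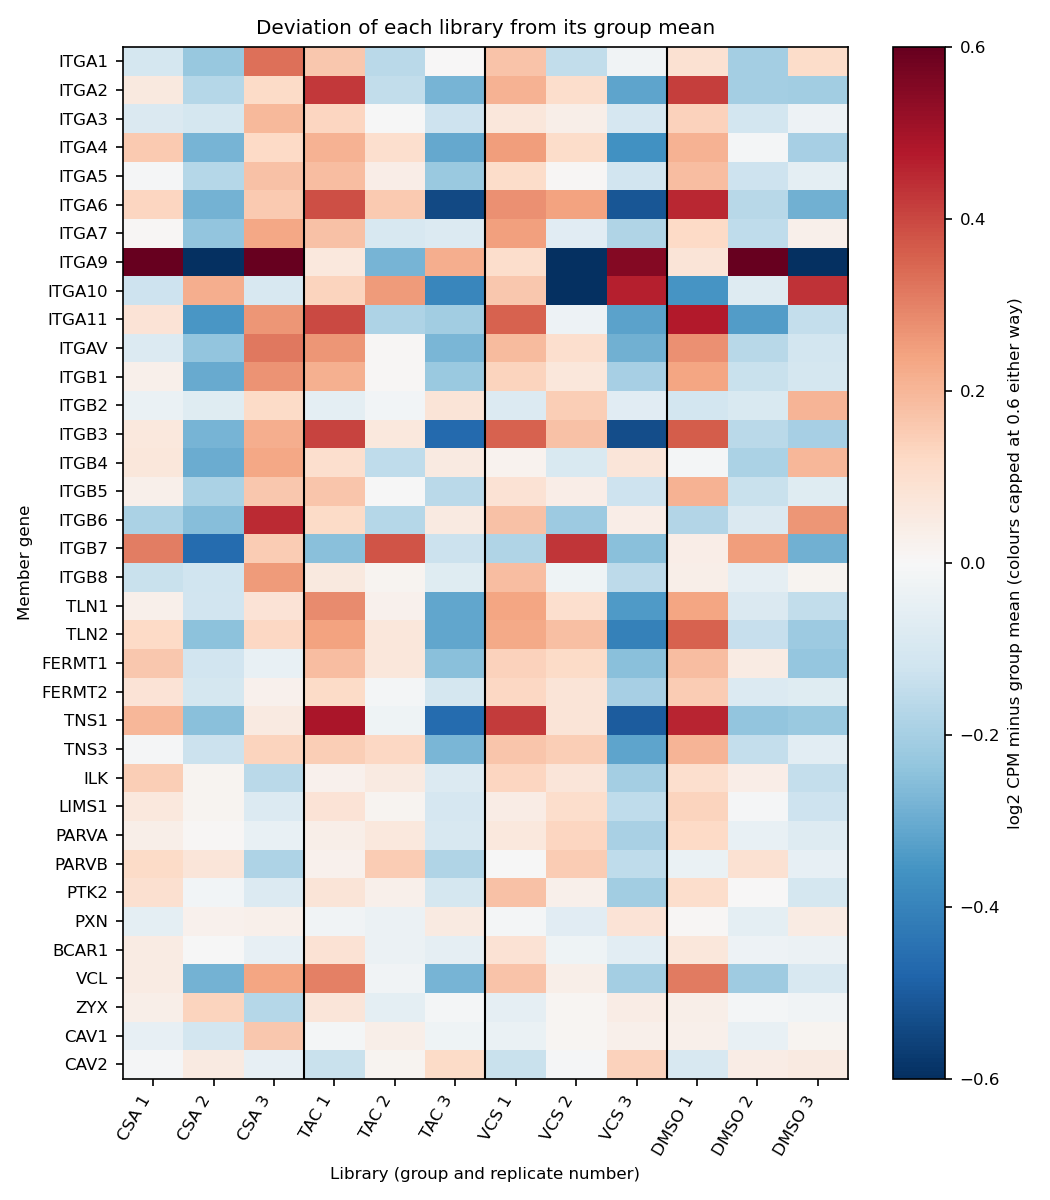
Deviation of each library from its group mean (log2 CPM, colours capped at 0.6 either way) for the 36 tested members, with groups separated by black lines. Most rows are blue in TAC 3 and VCS 3 and red in the libraries numbered 1 of TAC, VCS and DMSO, whereas most CSA rows are lowest in CSA 2.

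A fit with group and replicate number compared the 4 libraries numbered 3 with those numbered 1 and 2. What the numbers stand for is not given. Of the 36 members 9 were called (edgeR adjusted p under 0.05), beside 26.5% of all tested genes, which is near the members' own share. Of these 8 were lower in the libraries numbered 3, beside 12.9% of all genes, and 1 was higher, beside 13.6%. Mitochondrial transcripts also took a larger share in these libraries, as given above. Whether that share has a part in these values was not tested.

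In the complex of integrin-linked kinase all 4 genes lay below 0 and 3 were called lower. Of all genes 50.4% lay above 0 and 12.9% were called lower. Among the 19 tested integrin subunits 2 were called, 1 higher and 1 lower, and 0 of VCL, ZYX and the caveolins were. ILK was at 149, 136 and 120.3 CPM in CSA, 129, 132 and 120.1 in TAC, 145, 139 and 115 in VCS, and 142, 136 and 119.6 in DMSO. Replicate 3 was the lowest of its group in CSA, TAC, VCS and DMSO (log2 -0.22, SE 0.05, edgeR adjusted p = 0.00685). LIMS1 was at 161, 156 and 145 CPM in CSA, 173, 166 and 153 in TAC, 169, 177 and 147.5 in VCS, and 163, 148 and 137 in DMSO. It too was lowest in replicate 3 of every group (log2 -0.17, SE 0.05, edgeR adjusted p = 0.0205). PARVB was at 25.8, 25.1 and 21.0 CPM in CSA, 22.6, 24.6 and 19.5 in TAC, 21.6, 24.1 and 19.5 in VCS, and 22.35, 24.45 and 22.15 in DMSO (log2 -0.21, SE 0.06, edgeR adjusted p = 0.0142), and PARVA had an adjusted p of 0.0502, just short of the threshold.

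All 6 talin, kindlin and tensin genes lay below 0 in the libraries numbered 3, and 3 were called lower, beside the same 12.9% of all genes. TLN1 was at 826.5, 749 and 858 CPM in CSA, 836, 699.7 and 554 in TAC, 895, 815 and 600.1 in VCS, and 775, 618.5 and 594 in DMSO. It was lowest in replicate 3 of TAC, VCS and DMSO but highest there in CSA (log2 -0.26, SE 0.09, edgeR adjusted p = 0.0497). TNS1 was at 203, 149 and 183.5 CPM in CSA, 239, 167 and 123.5 in TAC, 223, 176 and 118 in VCS, and 192.5, 119 and 120.4 in DMSO (log2 -0.41, SE 0.11, edgeR adjusted p = 0.0184). FERMT1 was at 10.2, 8.38 and 8.81 CPM in CSA, 8.83, 8.13 and 6.51 in TAC, 10.7, 10.5 and 8.12 in VCS, and 8.57, 7.78 and 6.4 in DMSO (log2 -0.29, SE 0.08, edgeR adjusted p = 0.0176). In TNS1 and FERMT1 replicate 3 of TAC and of VCS held the lowest value of its group.

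PTK2 was at 117, 108 and 104 CPM in CSA, 130.4, 126 and 115 in TAC, 129, 116 and 98.75 in VCS, and 122, 114 and 105 in DMSO. It was lowest in replicate 3 of every group (log2 -0.19, SE 0.05, edgeR adjusted p = 0.014). ITGA6 was at 133.5, 100.3 and 136 CPM in CSA, 125, 106 and 65.4 in TAC, 141, 137.5 and 81.5 in VCS, and 120.2, 78.2 and 71.9 in DMSO. Replicate 3 was lowest in TAC, VCS and DMSO and highest in CSA (log2 -0.43, SE 0.14, edgeR adjusted p = 0.0461). ITGB4, the β partner of ITGA6, was the only member called higher. It was at 26.7, 20.7 and 29.9 CPM in CSA, 22.1, 18.55 and 21.4 in TAC, 26.85, 24.8 and 27.9 in VCS, and 22.35, 19.7 and 25.9 in DMSO (log2 0.21, SE 0.06, edgeR adjusted p = 0.0224), with replicate 3 highest in CSA, VCS and DMSO but not in TAC.

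These calls depended on single libraries. Without CSA replicate 3, the library whose members ran high, 22 members were called, beside 32.6% of all genes in that fit. Without VCS replicate 3 there were 2 (13.7% of all genes), without TAC replicate 3 there were 3 (17.3%), without DMSO replicate 3 there were 4 (17.4%) and without DMSO replicate 1 there were 5 (20.2%). DESeq2 called 11, beside 12.2% of the genes in its larger, unfiltered table. ILK was the only one of the 9 called under every alternative run, and PTK2 lost its call only without VCS replicate 3. ITGA6 and TLN1, which lay nearest to the threshold, lost theirs most often.

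A list of 45 other focal adhesion proteins, of which 43 were tested, and 6 other integrin subunit genes, of which 5 were tested, had 0 calls in each comparison between groups. Of the 43 proteins, 30 lay above 0 in CSA, 21 in TAC and 28 in VCS. In the libraries numbered 3, 11 of the 43 were called, 4 higher and 7 lower, beside the same 26.5% of all genes. SDC4, a matrix proteoglycan receptor of focal adhesions, was higher by 0.24 (SE 0.06, edgeR adjusted p = 0.0148), and TES, a LIM-domain protein of focal adhesions, by 0.19 (SE 0.05, edgeR adjusted p = 0.0103). CSRP1, a LIM protein of actin bundles, fell by 0.23 (SE 0.05, edgeR adjusted p = 0.0108), and NEDD9, a relative of BCAR1, fell by 0.24 (SE 0.08, edgeR adjusted p = 0.0479). The others were LIMS2 and TNS2 higher and CRK, DLC1, DOCK1, LPXN and PTPN11 lower. ITGAL, the α partner of ITGB2, had 24 to 68 counts and was higher by 0.70 (SE 0.22, edgeR adjusted p = 0.031).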

How the data were processed

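The deposited table holds expected counts, whole numbers per gene and library, from poly(A) RNA libraries. Per the submitters' processing notes, Salmon and the GRCh38 genome were used; versions and the annotation release are not given in the sources used here. The authors deposited no normalized values in this table. Per the labels, libraries had ERCC spike-ins and in-line UMIs. The table held 0 spike-in rows, and whether UMIs were collapsed is not stated, so intervals cover the spread between libraries and not molecules.

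Counts were filtered with filterByExpr (minimum count 10), scaled by TMM and fitted with edgeR 4.0.16 (R 4.3.3) over the 12 libraries by group alone, leaving 8 residual degrees of freedom. P-values are two-sided and Benjamini-Hochberg adjusted over all 19784 genes, with a threshold of 0.05, and intervals are 95%. The fitting code was tested on simulated data. Per-length levels used the exon union of GENCODE 29 on GRCh38, which covers 57845 of the 62262 genes, and symbols were found for 62252. Promoters are from RefSeq.

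Members and lists were chosen with earlier results of these data known. Libraries are given in the order of replicates 1, 2 and 3. Values of every library were given for members called in any comparison, for the 2 members with the smallest p in each direction in each comparison with DMSO, and for the 4 most abundant α and 4 most abundant β subunits. Given outside this rule were BCAR1, named after its values were seen, and ITGA8, the member too scarce to test. Other focal adhesion genes were named where called. The ratios of subunits and their exact tests, with and without pairing by replicate number, were added after seeing the data.

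Replicate numbers are shared between groups. The deviations of same-numbered libraries correlated above 0.1 in all 3 pairs for CSA against DMSO (r 0.103 to 0.22), TAC against DMSO (0.108 to 0.377) and TAC against VCS (0.232 to 0.532). They did not in all pairs for the other comparisons, with VCS against DMSO at 0.0975 to 0.428. Libraries of different numbers reached 0.025, 0.113 and 0.238 in the first 3 comparisons. In TAC against DMSO and TAC against VCS this passed the lowest same-numbered value. The pairing comes from the data and not from the labels, and it is uncertain. Alternatives were replicate number as a block, RLE size factors, no filter, DESeq2 1.42.0, fits restricted to the groups compared, each library left out, and the libraries numbered 3 left out.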

Additional observations from a re-analysis of the deposited data

How the results depend on the processing

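With replicate number as a block, 0 members were called in any comparison between groups, as with group as the only term, with DESeq2, RLE size factors, no filter, only the groups compared, each library left out, and without the 4 libraries numbered 3. The smallest adjusted p of any member over these was 0.0647 (DESeq2, CSA against TAC). At an unadjusted p under 0.05 the block gave 10 members for the mean of the 3 inhibitors (12.9% of all genes) and 9 for any difference among the 4 groups (14.0%). No filter gave 10 for CSA, 6 for TAC and 7 for VCS against DMSO, beside 4.61, 4.61 and 4.25% of 39923 genes. Those 39923 genes include many too scarce to pass the filter, whereas 36 of the 37 members pass it. Shares without a filter are therefore not a like background for the members. The number of members above 0 in TAC against DMSO was 14 to 23 when single libraries were left out. The log2 fold change of ITGB6 in CSA against DMSO ran from -0.39 to 0.0213 when single libraries were left out, and it turned without DMSO replicate 3 and without CSA replicate 2 (0.01). In the comparison of libraries numbered 3 with the others, 14 members were called without a filter, beside 14.1% of the same unfiltered 39923 genes. With the filter there were 9, beside 26.5% of 19784 genes. When single libraries were left out 2 to 22 were called, beside 13.7 to 32.6% of the filtered genes. The cause was not tested. With the length of the longest transcript in place of the exon union, the ITGA3 share of the α sum was 63.5% in CSA, 58.5% in TAC, 61.35% in VCS and 64.5% in DMSO, and the ITGB1 share of the β sum was 81.05% in CSA, 83.3% in TAC, 82.4% in VCS and 81.4% in DMSO. On that length PTK2 averaged 62.3, and ITGA5, at 62.75, averaged more than ITGA6, at 51.5. Of the recomputed fold changes of single members 602 kept their direction and side of the threshold, 34 lost a call and 2 turned. The 602 include members that were never called and stayed so. All 34 lost calls were among the 9 members called for the libraries numbered 3. Of the recomputed counts of members 363 were within 1.5 times the reported count, which includes counts that stayed at 0, and 76 were not. Members with few counts, ITGA8, ITGA9, ITGA10 and ITGB7, are limited by depth.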
